A study of Mus musculus with 4 samples.

Results

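The 10 genes described here encode core parts of the polycomb repressive complexes, chosen by name as rows of the deposited count table: Ezh1, Ezh2, Eed, Suz12 and Jarid2 of PRC2, and Bmi1, Ring1, Rnf2, Cbx7 and Cbx8 of PRC1. All 10 of the 10 names had a row, out of 13614 genes in the table. RNA-seq read counts came from mouse fetal liver cells of embryonic day 14.5 to 16.5, transduced with the retroviral vector MSCV-MLL-AF9-IRES-GFP and sorted for GFP, which the study calls leukemia-initiating cells. The genotypes compared were Prl2+/+ (wild type, 2 libraries) and Prl2-/- (knockout, 2 libraries); both carry the fusion, so no library shows cells without MLL-AF9. The deleted gene, listed as Ptp4a2 in the table, encodes the tyrosine phosphatase PRL2. Which part of that gene is deleted is not stated in the labels, nor whether libraries of a genotype came from separate embryos or cultures. The wild type libraries differed in Xist and Y-linked counts, given below, so they were not repeats of the same cells. The knockout libraries differed in counts of the Y-linked Eif2s3y (1034 and 3), also given below, so they were not repeats of the same cells either. Whether they shared an embryo is not known. If they did, their part of the spread behind the p-values given here leaves out differences between embryos.

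Polycomb complexes keep genes silent by marking histones. PRC2 methylates a lysine on the tail of histone H3, and PRC1 attaches ubiquitin to histone H2A and compacts chromatin; chromodomain proteins of PRC1 bind the mark that PRC2 makes. In blood cells the complexes are known for silencing the tumor suppressor locus Cdkn2a. In mouse models of MLL-AF9 leukemia, PRC2 and the PRC1 protein CBX8, which binds the AF9 part of the fusion, are known to be needed by the leukemic cells.

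The libraries held 14625725 to 15422309 counts. Ptp4a2 counts were 4884 and 5105 in the wild type and 89 and 104 in the knockout, so each library matched its label (log2 fold change -5.72, SE 0.143, adjusted p = 0.000429, edgeR quasi-likelihood test). All 7 of 7 haematopoietic and myeloid markers were measured, against 0 of 4 hepatocyte and 0 of 4 T cell markers. The 7 summed to 2749 and 5029 CPM (counts scaled to the library total and by TMM factors) in the wild type and 2879 and 2432 CPM in the knockout. Much of that was Mpo, at 1193 and 3009 CPM in the wild type and 1189 and 561 CPM in the knockout. Erythroid markers (4 of 7 measured) summed to 13.2 and 7.95 CPM in the wild type and 1.70 and 2.44 CPM in the knockout. B cell markers (3 of 5, mostly Ighm) summed to 477 and 442 against 309 and 363 CPM. For megakaryocyte markers (2 of 3) the sums were 49.5 and 21.1 against 16.4 and 24.4 CPM. The endothelial list had 1 of 4 measured, Pecam1, which leukocytes also express, at 393 and 202 against 207 and 309 CPM. Sex-linked genes differed between libraries of a genotype. Wild type replicate 1 had 11147 counts of Xist, against 9 in wild type replicate 2 and 3 and 12 in the knockout, and 12 counts of the Y-linked Ddx3y against 1271, 1320 and 1173. The Y-linked Eif2s3y, shown after its values were seen, had 3 and 1112 counts in the wild type and 1034 and 3 in the knockout, so on this gene knockout replicate 2 was as low as wild type replicate 1. The part of any of these in the polycomb values was not tested.

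The starts of 4 members are shown because these are the genes whose libraries separated by genotype, as given further down: Bmi1 and Ring1 lower and Suz12 and Ezh1 higher in the knockout. Of all genes 44.2% separated in this way, so it does not set these members apart, and no member was called different. Each sequence is the 250 bases before the start site, from RefSeq on GRCm38.p6, written 5′ to 3′ on the gene's strand, with the GC box (GGGCGG or its complement CCGCCC) in capitals.
Suz12, chr11:79992856-79993105, plus strand: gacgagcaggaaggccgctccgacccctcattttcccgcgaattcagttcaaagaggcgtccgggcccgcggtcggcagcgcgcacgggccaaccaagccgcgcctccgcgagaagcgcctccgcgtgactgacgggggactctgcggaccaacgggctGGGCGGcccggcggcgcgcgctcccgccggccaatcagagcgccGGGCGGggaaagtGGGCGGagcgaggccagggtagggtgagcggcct
Ezh1, chr11:101226464-101226713, minus strand: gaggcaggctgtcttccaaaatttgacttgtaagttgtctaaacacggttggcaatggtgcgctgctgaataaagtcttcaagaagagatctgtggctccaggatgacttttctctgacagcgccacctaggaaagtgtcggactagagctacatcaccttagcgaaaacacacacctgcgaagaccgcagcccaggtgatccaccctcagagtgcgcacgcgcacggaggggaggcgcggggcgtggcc
Bmi1, chr2:18676768-18677017, plus strand: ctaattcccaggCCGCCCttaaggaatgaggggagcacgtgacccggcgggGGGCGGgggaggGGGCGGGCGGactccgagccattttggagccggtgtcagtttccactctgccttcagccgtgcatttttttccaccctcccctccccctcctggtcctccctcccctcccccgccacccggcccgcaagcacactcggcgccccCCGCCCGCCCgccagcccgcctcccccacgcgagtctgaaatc
Ring1, chr17:34024681-34024930, minus strand: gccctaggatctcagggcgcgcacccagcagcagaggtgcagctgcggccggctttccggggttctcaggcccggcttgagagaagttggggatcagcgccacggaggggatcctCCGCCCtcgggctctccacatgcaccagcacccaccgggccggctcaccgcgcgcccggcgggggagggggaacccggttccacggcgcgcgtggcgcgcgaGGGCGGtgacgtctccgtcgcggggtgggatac
In all 4 the RefSeq start site was the same base as the outer end of the gene in the count table. The Suz12, Bmi1 and Ring1 windows hold GC boxes and the Ezh1 window holds none.

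All 10 members matched the RefSeq promoter table, with 11 windows because Jarid2 has 2. The median GC content of these windows was 66.4%, against 52.4% over all 32851 windows of the table. Their median ratio of observed to expected CpG was 0.890, against 0.3735 over all windows, and the median number of CpG was 22 against 6. Suz12 had the highest number, 37, and Eed the lowest, 12. On either strand GGGCGG was found in 7 of 10 members (not in Ezh1, Ezh2 or Eed) and in 32.7% of all windows, and the CCAAT box, CCAAT, in 5 of 10 and in 33.8%. The E2F-type letters TTTGGCGC and TTTCGCGC were found in 0 of 10 and in 0.654% of all windows. The E-box CACGTG was in Bmi1 and Cbx8 (6.02% of all windows), the TATA letters TATAAA in 1 window of Jarid2 (12.4%), the CRE letters TGACGTCA in Cbx8 (1.55%), and the ETS-type letters CCGGAAG in 0 of 10 (6.91%). GC-rich motifs are more frequent in GC-rich windows, so these shares describe letters only.

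Suz12 stood highest of the members in every library. Per kb of the deposited gene length, which for all 10 members was the length of the merged GENCODE M21 exons, Suz12 was at 45.3 CPM per kb on average over the 4 libraries (41.6 to 51.1). It ranked at or above 90.6% of all genes on that scale. Ezh2 (20.5), Rnf2 (20.2), Jarid2 (17.8), Bmi1 (17.7), Ring1 (14.9) and Eed (13.9 CPM per kb) followed, and in this run each gene's range over the libraries overlapped that of its neighbour. Cbx8 (7.65) and Ezh1 (7.05 CPM per kb) came next and also had overlapping ranges, though Cbx8 was above Ezh1 in each library. Cbx7 was the lowest member in each library, at 1.93 CPM per kb (1.59 to 2.54), with 26.0% of genes at or below its level.

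**Figure D1:**
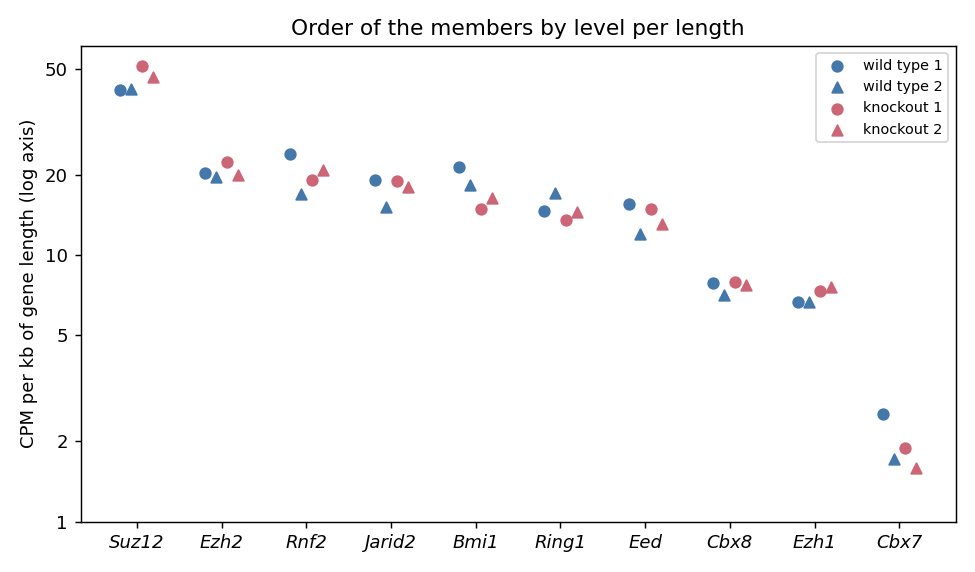
Level of each member in each library, as CPM per kb of gene length on a log axis, ordered by the mean over the 4 libraries. Suz12 lies above all others at 41.6 to 51.1 CPM per kb, Cbx7 below all others at 1.59 to 2.54, and neighbours from Ezh2 to Eed overlap.

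None of the 10 members was called different between the genotypes. In edgeR's quasi-likelihood test 0 of 10 members had an adjusted p of 0.05 or less over all 13614 genes, where 0.00735% of all genes did (1 gene, Ptp4a2). At an unadjusted p under 0.05 there was 1 of 10 members, Bmi1, where 9.89% of all genes passed; Bmi1 was lower, as were 4.23% of all genes at that p, and 5.66% were higher. The number called was also 0 of 10 with limma-voom, with the likelihood ratio test of edgeR and with DESeq2. In the authors' deposited table, where 65 genes (0.477%) had an adjusted p of 0.05 or less, the lowest adjusted p of a member was 0.841, for Bmi1. The groups' CPM values did not overlap for 4 of 10 members, where 44.2% of all genes had none. The member values had a median log2 fold change of 0.045, against -0.0059 over all genes. Every member's 95% interval lay inside a log2 change of 1 in either direction, from -0.94 (the lower bound of Cbx7) to 0.48 (the upper bound of Suz12), as did the intervals of 8175 of the 9046 genes with a mean of 10 CPM or more.

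**Figure D2:**
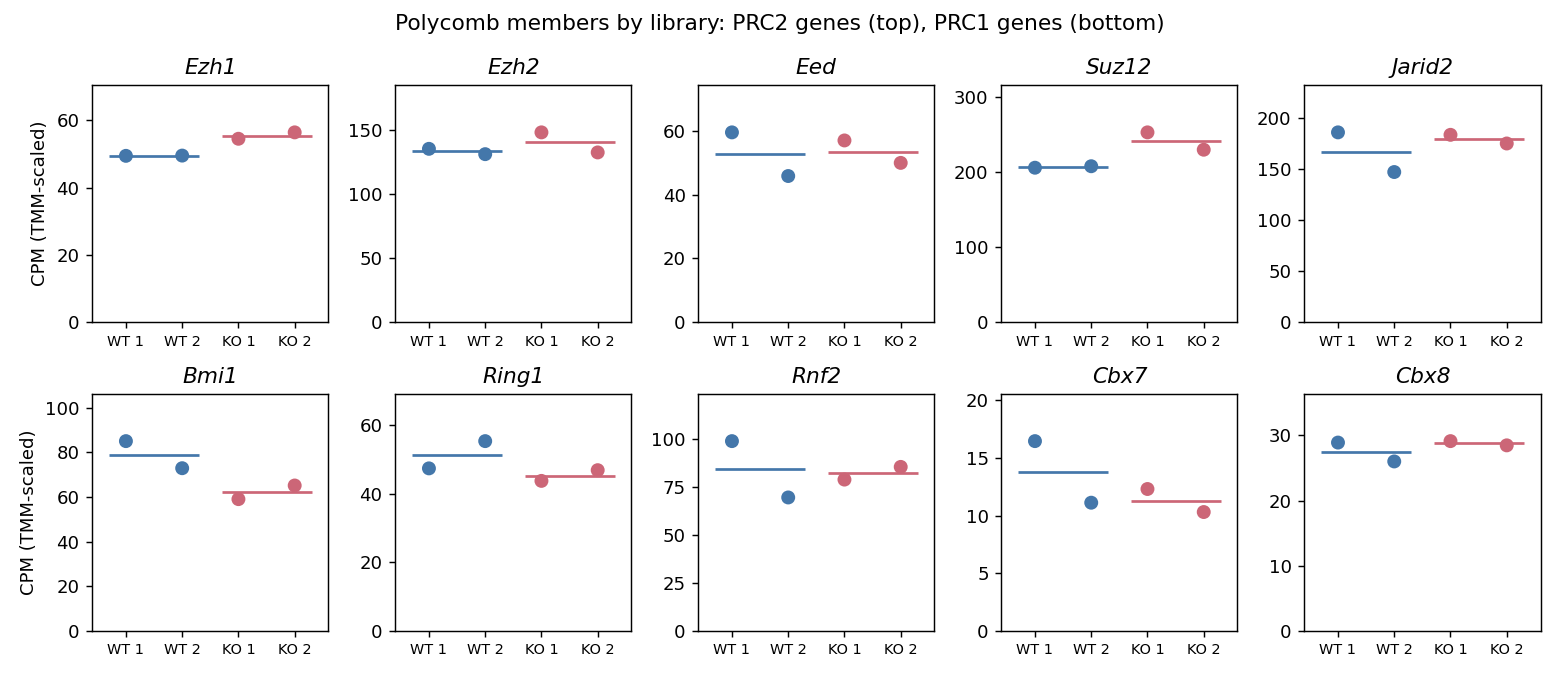
CPM of each member in each library (points; WT, wild type; KO, Prl2 knockout) with the mean of each genotype (lines), on axes that start at 0. The genotypes do not overlap for Ezh1, Suz12, Bmi1 and Ring1; for Eed, Jarid2, Ring1, Rnf2, Cbx7 and Cbx8 the wild type libraries lie farther apart than the genotype means.

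The catalytic subunits of PRC2 are the methyltransferases EZH2, typical of dividing cells, and EZH1, which is also found in resting cells; positions below are on mm10 and span the whole gene, exons and introns. Ezh2 (ENSMUSG00000029687.16, chr6:47530139-47595341, minus strand) was at 135.6 and 131 CPM in the wild type and 149 and 133 CPM in the knockout. The groups overlapped, as knockout replicate 2 lay between the wild type libraries (log2 fold change 0.075, SE 0.107, 95% interval -0.19 to 0.34, edgeR quasi-likelihood adjusted p = 0.837). Ezh1 (ENSMUSG00000006920.14, chr11:101191115-101226463, minus strand) was at 49.4 and 49.5 CPM in the wild type and 54.5 and 56.4 CPM in the knockout. Both knockout libraries were higher than both wild type libraries, with a log2 fold change of 0.16 (95% interval -0.11 to 0.44, SE 0.111; adjusted p = 0.637 by edgeR's quasi-likelihood test). Per kb, Ezh2 exceeded Ezh1 by 3.06 and 2.96 times in the wild type and by 3.04 and 2.62 times in the knockout, so the ratio also overlapped between genotypes.

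SUZ12 is the scaffold on which PRC2 assembles, and EED reads the methyl mark and stimulates the enzyme. Suz12 (ENSMUSG00000017548.15, chr11:79993106-80034123, plus strand) was at 206 and 208 CPM in the wild type and 253 and 230 CPM in the knockout, with no overlap. It had the highest fold change of the members, 0.22 (log2; 95% interval -0.035 to 0.48, SE 0.104), and was not called (edgeR quasi-likelihood adjusted p = 0.534). Eed (ENSMUSG00000030619.9, chr7:89954654-89980983, minus strand) was at 59.7 and 45.9 CPM in the wild type and 57.1 and 50.1 CPM in the knockout. Both knockout values fell between the wild type values, at a log2 fold change near 0 (0.022, SE 0.166; adjusted p = 0.975 by edgeR's quasi-likelihood test). JARID2 is an accessory protein that helps bring PRC2 to its targets. Jarid2 (ENSMUSG00000038518.15, chr13:44729474-44921643, plus strand) was at 186 and 147 CPM in the wild type and 184 and 175 CPM in the knockout, again inside the wild type range (log2 fold change 0.11, SE 0.139, edgeR quasi-likelihood adjusted p = 0.821). All 5 PRC2 members thus had positive fold changes, from 0.022 to 0.22, with 0 of 5 called; 49.1% of all genes were positive. Summed over the 5 genes the level was 636 and 582 CPM in the wild type and 697 and 644 CPM in the knockout.

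BMI1 is the ring-finger partner that activates the ubiquitin ligase of PRC1, and is needed for self-renewal of blood stem cells. Bmi1 (ENSMUSG00000026739.13, chr2:18677018-18686629, plus strand) had 1271 and 1082 counts in the wild type and 902 and 986 in the knockout, which is 85.0 and 72.9 CPM against 59.0 and 65.1 CPM. Both knockout libraries were lower than both wild type libraries. Its log2 fold change of -0.35 (SE 0.130, 95% interval -0.67 to -0.026) was the lowest of the members and was not called after adjustment (unadjusted p = 0.0385, edgeR quasi-likelihood adjusted p = 0.494). The unadjusted p rose to 0.132 without wild type replicate 1, 0.193 without knockout replicate 1 and 0.0763 without knockout replicate 2, with edgeR quasi-likelihood adjusted p of 0.616, 0.884 and 0.837. Without wild type replicate 2 it fell to 0.0155 (edgeR quasi-likelihood adjusted p = 0.257). The log2 fold change was between -0.46 (without wild type replicate 2) and -0.24 (without wild type replicate 1) over these 4 fits. A transcribed copy of Bmi1, Gm5946, matches 2658 bases of its transcript at 97.0% identity and was not analysed here, so reads shared between them are uncertain.

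RING1 and RNF2 (also RING1A and RING1B) are the alternative ubiquitin ligases of PRC1. Ring1 (ENSMUSG00000024325.8, chr17:34020792-34024680, minus strand) was at 47.3 and 55.3 CPM in the wild type and 43.7 and 46.8 CPM in the knockout. The groups did not overlap, but the gap between the wild type libraries, 0.22 on the log2 scale, was larger than the genotype difference of -0.18 (SE 0.133; adjusted p = 0.667 by edgeR's quasi-likelihood test). That difference was -0.30 without wild type replicate 1 and -0.070 without wild type replicate 2. Rnf2 (ENSMUSG00000026484.13, chr1:151458004-151500955, minus strand) was at 99.0 and 69.6 CPM in the wild type and 79.0 and 85.6 CPM in the knockout. The wild type libraries enclosed the knockout libraries and differed by 0.51 on the log2 scale, against a genotype difference of -0.036 (SE 0.185; adjusted p = 0.961 by edgeR's quasi-likelihood test). Rnf2 over Ring1, per kb, was 1.64 and 0.990 in the wild type and 1.42 and 1.44 in the knockout. Rnf2 was thus above Ring1 in every library but wild type replicate 2.

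CBX7 and CBX8 are chromodomain subunits, of which PRC1 holds 1 at a time. Cbx7 (ENSMUSG00000053411.16, chr15:79915807-79971119, minus strand) was at 16.5 and 11.1 CPM in the wild type and 12.3 and 10.3 CPM in the knockout. The groups overlapped, and wild type replicate 1 was the highest library (log2 fold change -0.29, SE 0.263, 95% interval -0.94 to 0.36, edgeR quasi-likelihood adjusted p = 0.733). Without that library the log2 fold change was 0.012. Cbx8 (ENSMUSG00000025578.9, chr11:119036305-119040969, minus strand) was at 28.9 and 26.0 CPM in the wild type and 29.1 and 28.5 CPM in the knockout, with overlap (log2 fold change 0.069, SE 0.142; adjusted p = 0.894 by edgeR's quasi-likelihood test). Cbx8 over Cbx7, per kb, was 3.10 and 4.13 in the wild type and 4.18 and 4.88 in the knockout. The ratio was higher in both knockout libraries, though the nearest libraries of the genotypes, at 4.13 and 4.18, lay closer together than the libraries of either genotype. Of the 5 PRC1 members 4 had negative fold changes and Cbx8 a positive one, with 0 of 5 called, and their summed level was 277 and 235 CPM in the wild type against 223 and 236 CPM in the knockout.

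**Figure D3:**
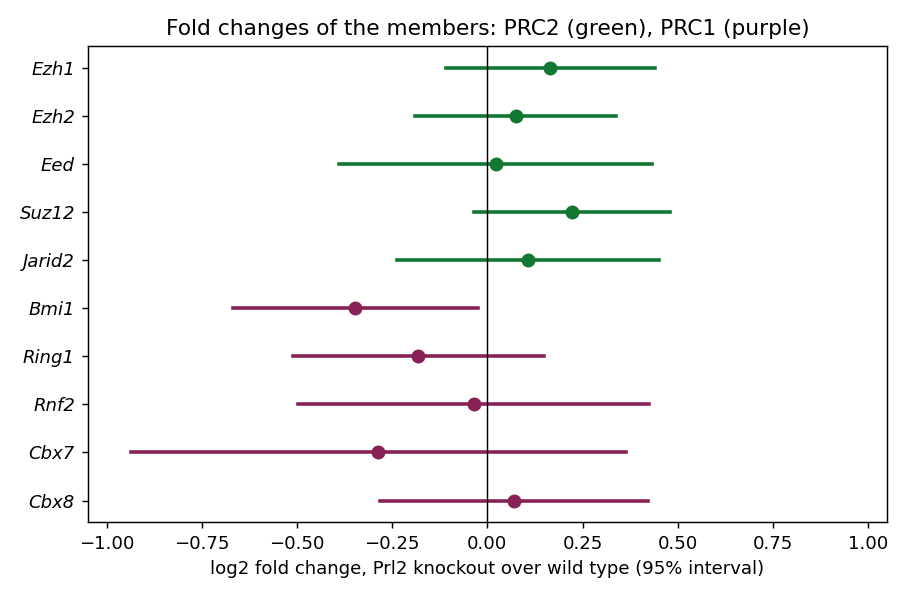
Log2 fold change of each member, Prl2 knockout over wild type, with its 95% interval from edgeR's quasi-likelihood fit. The PRC2 points (green) lie between 0.022 and 0.22 and the PRC1 points (purple) between -0.35 and 0.069; 9 of the 10 intervals cross 0, and that of Bmi1 ends at -0.026.

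The spread between libraries of a genotype is given beside the genotype differences. The gap between the 2 wild type libraries was larger than the difference between genotypes for 6 of 10 members (Eed, Jarid2, Ring1, Rnf2, Cbx7 and Cbx8), and the gap between the knockout libraries was larger for 3 of 10 (Ezh2, Eed and Rnf2). Over the 9046 genes with a mean of 10 CPM or more the shares were 53.8% and 46.2%. The members' count was thus near that share for the wild type and below it for the knockout, on 10 genes only. The median gap of the members on the log2 scale was 0.22 between wild type libraries and 0.13 between knockout libraries, against 0.17 and 0.13 over those genes. Wild type replicate 1 was the higher of the wild type libraries for 7 of 10 members, all but Ezh1, Suz12 and Ring1.

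The remaining genes of the polycomb system were counted in lists chosen by function. Of 8 other PRC2 subunits 7 were measured, 4 with positive and 3 with negative fold changes, a median of 0.086 and 0 called. Their groups did not overlap for 2 higher genes (Rbbp4 and Rbbp7) and 3 lower ones (Aebp2, Phf1 and Epop), where 22.2% of all genes were higher and 21.9% lower without overlap. Rbbp4, a histone-binding subunit that other chromatin complexes also use, was at 408 and 417 CPM in the wild type and 515 and 502 CPM in the knockout, with no overlap (log2 fold change 0.30, SE 0.102, unadjusted p = 0.0266, edgeR quasi-likelihood adjusted p = 0.476). With the trend on gene length taken out of every library its log2 fold change was 0.18. Phf1 and Epop, accessory PRC2 proteins shown after their values were seen, were the lowest of the list. Phf1 was at 21.3 and 15.7 CPM against 11.1 and 13.9 CPM (log2 fold change -0.57, SE 0.239, unadjusted p = 0.0563, edgeR quasi-likelihood adjusted p = 0.516), and at -0.34 without wild type replicate 1. Epop was at 23.7 and 21.3 CPM against 17.5 and 16.8 CPM (log2 fold change -0.39, SE 0.165, unadjusted p = 0.0557, edgeR quasi-likelihood adjusted p = 0.515). All 22 other PRC1 subunits were measured, 16 positive and 6 negative, with a median of 0.19 and 0 called. Their groups did not overlap for 10 of 22, all higher in the knockout, where 22.2% of all genes were higher and 21.9% lower without overlap. These genes were 1649 to 22890 bp long. Fold changes moved with gene length, as given below, and the part of length in this count was not tested. Phc1, a polyhomeotic protein of canonical PRC1, had 314 and 380 counts in the wild type and 466 and 481 in the knockout (log2 fold change 0.42, SE 0.162, unadjusted p = 0.0432, edgeR quasi-likelihood adjusted p = 0.499), and a log2 fold change of 0.27 without wild type replicate 1. Bcorl1, a corepressor of variant PRC1 encoded on the X chromosome, was at 28.6 and 29.5 CPM against 35.5 and 37.3 CPM (log2 fold change 0.33, SE 0.129, unadjusted p = 0.0471, edgeR quasi-likelihood adjusted p = 0.502), and at a log2 fold change of 0.20 (unadjusted p = 0.175) in edgeR's quasi-likelihood fit with the length trend removed.

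Enzymes and cofactors that remove polycomb marks had 7 of 8 genes measured, with 5 positive and 2 negative, a median of 0.065 and 0 called. Of these, 2 were higher without overlap (Asxl1 and Asxl2) and 0 lower, where 22.2% of all genes were higher and 21.9% lower without overlap. Bap1, the deubiquitinase of histone H2A, was at 100.2 and 103 CPM in the wild type and 103 and 91.6 CPM in the knockout, with overlap (log2 fold change -0.058, SE 0.110, edgeR quasi-likelihood adjusted p = 0.881). Asxl1, its cofactor and a gene mutated in myeloid disease, was at 139 and 131 against 158 and 148 CPM, with no overlap (log2 fold change 0.18, SE 0.101, edgeR quasi-likelihood adjusted p = 0.587), and a log2 fold change of 0.071 with the length trend removed.

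Of 16 genes known as polycomb targets 2 were measured, and neither was called. Cdkn2a, which encodes the INK4A and ARF tumor suppressors, had 21 and 12 counts in the wild type and 49 and 20 in the knockout. The groups overlapped, and the log2 fold change was 1.03 (SE 0.587, 95% interval -0.43 to 2.48, edgeR quasi-likelihood adjusted p = 0.590). With a library left out in turn, it ranged from 0.25 without knockout replicate 1 to 1.53 without knockout replicate 2. Cdkn1c, an imprinted inhibitor of cyclin-dependent kinases, had 461 and 1017 counts against 174 and 347, with no overlap (log2 fold change -1.53, SE 0.566, 95% interval -3.13 to 0.060, unadjusted p = 0.0556, edgeR quasi-likelihood adjusted p = 0.515). The same fits for Cdkn1c ranged from -2.12 without knockout replicate 2 to -0.85 without wild type replicate 2. Its p-values depended on the method. The unadjusted p was 0.000815 with DESeq2 (DESeq2 adjusted p = 0.0817) and 0.00332 with edgeR's likelihood ratio test (adjusted p = 0.227 by that test). With a term for replicate number it was 0.000172 in edgeR's quasi-likelihood test (adjusted p = 0.481 by that test).

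**Figure D4:**
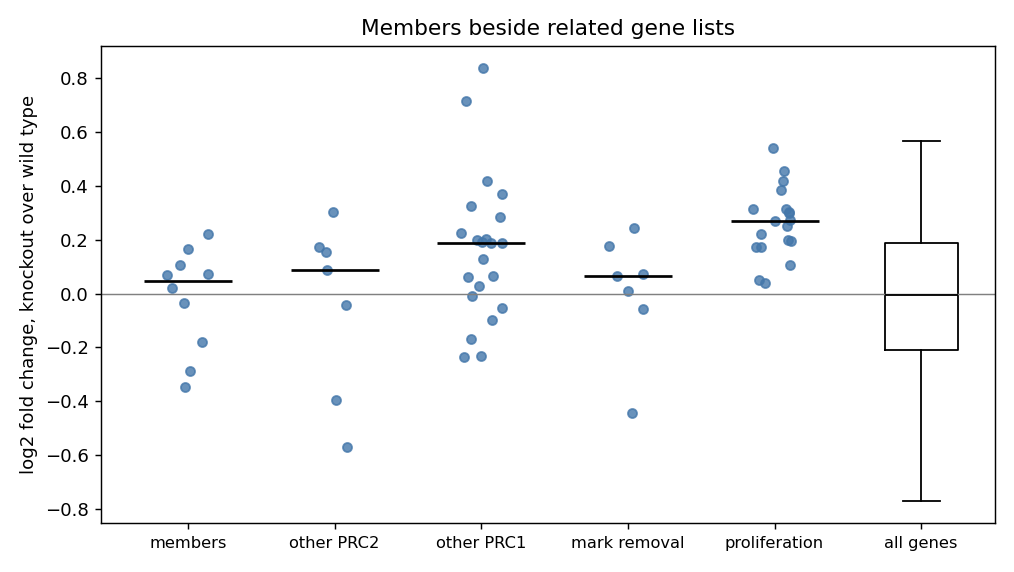
Log2 fold change, Prl2 knockout over wild type, of each measured gene (points) in the members and the related lists, with the list's median (line), beside all 13614 genes (box, quartiles; whiskers, 5th to 95th percentile). The medians are 0.045 for the members, 0.19 for the other PRC1 subunits and 0.27 for the proliferation markers, against -0.0059 for all genes.

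Ezh2 is known to be higher in dividing cells, and proliferation markers are therefore given beside the members. All 19 of 19 proliferation markers had a positive fold change, with a median of 0.27, 0 called and 6 at an unadjusted p under 0.05. Over all genes 49.1% were positive, and 5.66% were higher at that p in edgeR's quasi-likelihood test. The markers' summed level was 4685 and 5163 CPM in the wild type and 6389 and 5507 CPM in the knockout. Mki67 was at 408 and 500.3 CPM against 748 and 575 CPM, and Top2a at 491 and 527 against 768 and 628 CPM. Without knockout replicate 1 the log2 fold change of Mki67 went from 0.54 to 0.34 and that of Top2a from 0.46 to 0.30. Knockout replicate 1 was the highest library for the markers' sum and for 3 of 10 members (Suz12, Ezh2 and Cbx8). The highest library was wild type replicate 1 for 5 of 10 (Eed, Jarid2, Bmi1, Rnf2 and Cbx7), wild type replicate 2 for Ring1 and knockout replicate 2 for Ezh1. Gene length moved with the fold change as well: over protein-coding genes whose log2(CPM + 1) averaged 3 or more, the median fold change was -0.071 up to a length of 3535 bp and 0.11 above 6109 bp, and the members span 3243 to 9715 bp. With the length trend removed the log2 fold change of Suz12 was 0.18, of Ezh1 0.058, of Ezh2 -0.015 and of Bmi1 -0.35. That of Mki67 was then 0.40 and that of Top2a 0.33. The part of proliferation in the polycomb values was not tested, and in bulk RNA fewer cells of a type and less RNA per cell cannot be told apart.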

How the data were processed

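The deposited table gives raw read counts (whole numbers) for every gene listed, in each of the 4 libraries. The submitters' processing notes name STAR, Bowtie2, featureCounts and mm10; their versions, their order and whether counting used the strand are unknown here. Without the strand, reads in exons shared with an antisense gene are uncertain: such exons are 3.60% of Suz12 (Gm26563), 3.83% of Rnf2 (Trmt1l), 1.54% of Cbx7 (Apobec3), 6.82% of Eed and 2.61% of Ezh2. The authors also deposited log2 CPM, log2 RPKM, log2 fold changes, p-values with their adjusted form, and gene lengths, per the file headers. The smallest total of a listed gene is 23 counts, and genes below that were not analysed here.

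Each column was assigned by the short name in a sample's description, and replicate numbers come from the titles. Libraries of a genotype differed by more than sampling noise (mean chi-square per gene 33.8 in the wild type, 18.7 in the knockout). The test was edgeR's quasi-likelihood test (edgeR 4.0.16, R 4.3.3; robust, TMM, genotype as the single term; filterByExpr kept all 13614 genes), checked on simulated data. Adjusted p-values are two-sided, Benjamini-Hochberg over all genes, and genes at 0.05 or less were called. SE is the log2 fold change over the root of F, and intervals are at 95%. Alternatives were DESeq2 1.42.0, limma-voom (limma 3.58.1), edgeR's likelihood ratio test, other scalings and filters, left-out libraries, a replicate block, removal of the length trend, and no sex-linked genes. Members and lists were chosen with earlier results of these data known. Named genes are all members, and of the other polycomb lists those at an unadjusted p under 0.05, or else the 2 highest per kb, with Cdkn2a always. Likeness of pattern was not sought, since 4 libraries are too few for a correlation.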

Additional observations from a re-analysis of the deposited data

How the results depend on the processing

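Of the polycomb members 0 were called under any alternative run, and of the other polycomb genes 0. The number of members at an unadjusted p under 0.05, 1 over all 4 libraries (Bmi1), was 0 with edgeR's likelihood ratio test, 0 with the replicate block and 0 to 1 when a library was left out. Over the whole table DESeq2 called 92 genes and the likelihood ratio test 77, against 1, and leaving out a library gave 0 to 8. The median log2 fold change of the members lay between -0.064 (without wild type replicate 2) and 0.14 (without wild type replicate 1). Leaving out a library in turn, the sign was not fixed for Ezh2 (-0.0079 to 0.15), Eed (-0.16 to 0.21), Jarid2 (-0.058 to 0.27), Rnf2 (-0.27 to 0.23), Cbx7 (-0.55 to 0.012), Cbx8 (-0.011 to 0.14), Bap1 (-0.15 to 0.025) and Kdm6a (-0.88 to 0.16). Eed was at -0.0059 with library totals only, and Ezh2 at -0.015 and Jarid2 at -0.030 with the length trend removed. Ezh1, Suz12, Bmi1 and Ring1 kept their sign in all 14 alternatives. These are the members whose groups did not overlap, so leaving out a library could hardly have reversed them. The alternative without a filter repeated the main fit, because filterByExpr had kept every gene. Ptp4a2 had edgeR quasi-likelihood adjusted p of 0.111 and 0.0856 without knockout replicates 1 and 2, at -5.61 and -5.85. The labels do not say that shared replicate numbers pair libraries, and deviations of same-numbered libraries correlated at -0.142 over genes. The replicate block called 0 members and 1 gene, as did the crossed pairing, chosen after seeing the data. A fit without 1 library assumes that the lone library varies like the other group.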

Other observations

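Kdm6a, an X-linked gene chosen after its values were seen, encodes a demethylase that removes the PRC2 mark and is known to escape X inactivation. It was at 82.5 CPM in wild type replicate 1, the library with 11147 counts of Xist, and at 39.8, 48.9 and 40.9 CPM in wild type replicate 2 and the knockout libraries. Its log2 fold change was -0.44 (SE 0.385) over all libraries (edgeR quasi-likelihood adjusted p = 0.726) and 0.16 without wild type replicate 1. Uty, its Y-linked relative, had 1 count in wild type replicate 1 and 281, 298 and 327 counts in the others.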
